A study of Mus musculus with 6 samples.

Results

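The antioxidant enzymes described here are 10 mouse genes, Sod1, Sod2, Cat, Gpx1, Gpx4, Prdx1, Prdx3, Txn1, Txnrd1 and Hmox1. They were chosen by name, with earlier results of these data known, so counts of called members beside shares of all genes are a description, not a test. Each name was matched to a single gene in the transcript tables of all 6 libraries, so that 10 of the 54446 genes in these tables are members. Total RNA was sequenced from CD8+ T cells purified by negative selection from the spleens of C57BL/6 mice aged 8 weeks. Unstimulated cells (2 libraries) were taken without culture, whereas Control cells (2 libraries) were stimulated for 72 h with antibodies to CD3 and CD28 bound to the plate, away from magnets. SMF cells (2 libraries) received the same stimulation on a permanent magnet that gave a static magnetic field of 0.3 T. The labels name no other agent, and no allele, that separates the groups, and fresh cells differ from the others by the culture as well as the antibodies. The labels do not say whether the 2 libraries of a group came from separate mice or cultures, so p-values measure only the spread between these libraries, which may be technical.

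Cells that respire make superoxide, and several layers of enzymes deal with what follows from it. Superoxide dismutases turn superoxide into hydrogen peroxide, which catalase, glutathione peroxidases and peroxiredoxins then reduce to water, and the peroxiredoxins are recharged by thioredoxin and thioredoxin reductase. Many of these genes are targets of the transcription factor NRF2 (Nfe2l2), which the adaptor KEAP1 marks for degradation in the absence of oxidative stress and which binds the antioxidant response element (ARE). In T cells, antigen receptor signalling itself produces reactive oxygen species, and activated T cells depend on glutathione and thioredoxin for growth.

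Levels are given as FPKM, the read fragments per kilobase of transcript scaled to the mapped fragments of the library, summed over the transcripts of a gene. The files hold no read counts, and the depth, taken as read coverage multiplied by transcript length, spanned 64.4 to 259 Mb and was greatest in the SMF libraries (259 and 227 Mb). Between 9.17% and 19.7% of the genes tested were listed at 0 in any 1 library, most often in Control 1 (19.7%) and Unstimulated 1 (17.3%), so a member is only said to be listed at 0. A gene is called higher or lower where limma, a linear model fitted to log2(FPKM + 1) across all genes, gave at least a 2-fold change together with an unadjusted p no greater than 0.05, the thresholds of the study. The p-values printed for genes are adjusted over all genes tested by the Benjamini-Hochberg method. File headers place replicate 1 of the Unstimulated and Control groups in a folder dated 20170621, replicate 2 of both groups in a folder dated 20171112, and both SMF libraries in a folder dated 20181021. The field and this folder date therefore cannot be told apart. Protein-coding genes held 49.1% to 50.5% of all FPKM in the Unstimulated and Control libraries, compared with 69.2% and 68.7% in both SMF libraries, and the median log2 fold change of all 14991 genes tested was 0.32 in SMF against Control and -0.05 in Control against Unstimulated. The part of depth, date and this shift in the differences below was not tested beyond the rescaled values given beside them. The T cell genes Cd8a, Cd8b1, Cd3d, Cd3e and Cd3g were above 35 FPKM in every library, with a summed level between 271 and 748 FPKM.

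Sod1 (ENSMUSG00000022982.10, chr16:90220754-90226329, + strand, GRCm38) encodes the copper and zinc superoxide dismutase of the cytosol. Its level was 11.7 and 12.5 FPKM in the Unstimulated libraries, 11.6 and 112 FPKM in the Control libraries and 192 and 227 FPKM in the SMF libraries. Control 1 lay at the level of fresh cells and Control 2 almost 10-fold above it, while both SMF libraries were above all others. The log2 fold change was 2.48 ± 0.94 (SE, n = 2 libraries a group) in SMF against Control, where Sod1 was called higher (limma adjusted p = 0.218) and 1.53 ± 0.94 in Control against Unstimulated (adjusted p = 0.358), and the former was 0.90, and no longer called, without Control 1.

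The spread of Sod1 between libraries was also a spread between transcripts. The spliced mRNA (ENSMUST00000023707.10, 641 bases in 5 exons) was listed at 0 in both Unstimulated libraries and in Control 1, where the whole level was assigned to a transcript of 3970 bases that keeps introns 1 and 2 (ENSMUST00000232505.1). In Control 2, SMF 1 and SMF 2 the spliced mRNA held 98.3%, 93.3% and 97.6% of the Sod1 level. The sequences that set these transcripts apart are the 20 bases before and the 20 after the end of exon 2 (chr16:90222876, GENCODE M21 transcripts), with the bases after the boundary in capitals.
Sod1 exon 2 joined to exon 3: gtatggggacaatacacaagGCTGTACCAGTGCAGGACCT
Sod1 exon 2 read into intron 2: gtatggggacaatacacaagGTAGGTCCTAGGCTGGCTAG

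Exons 4 and 5 are shared by these transcripts and were covered in every library. Coverage was summed over transcripts and put on the FPKM scale of each library. Exon 4 gave 122 and 145 in fresh cells, 167 and 297 in Control cells and 629 and 588 in SMF cells. The value over the span of exon 2 was 6.59, 3.85, 3.67, 89.2, 155 and 202 in the same order. In fresh cells and Control 1 this value equals that of exons 1 and 3. There it is an average over the long exon of the retained-intron transcript, introns 1 and 2 included, and not a reading of exon 2 alone. Exon 4 was thus covered in fresh cells and Control 1 where the spliced mRNA was listed at 0. When the coverage of all exons was divided by merged exon length in place of the assigned transcripts, an alternative added after the data were seen, the log2 fold change of Sod1 became 1.4 in SMF against Control, where it was called, and 0.30 in Control against Unstimulated, where it was not. The direction in Control against Unstimulated also rested on 1 library, since it was -0.051 without Control 2.

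Sod2 (ENSMUSG00000006818.5, chr17:13006846-13040063, + strand) encodes the manganese superoxide dismutase of the mitochondrial matrix and was among the 3 members with the lowest mean level in each group. It was listed at 3.36 and 4.04 FPKM in the Unstimulated libraries, 1.98 and 2.85 FPKM in the Control libraries and 9.58 and 6.04 FPKM in the SMF libraries. The Control libraries were below, and the SMF libraries above, all others. Sod2 had a log2 fold change of 1.35 ± 0.49 in SMF against Control (adjusted p = 0.210) and -0.47 ± 0.49 in Control against Unstimulated (adjusted p = 0.588). The first was no longer called in 9 of 14 alternatives, such as when the replicate number was added as a block, and ranged from 0.83 to 1.64. The second turned to 0.95 when protein-coding transcripts alone were summed, because in Unstimulated 1 the whole level came from a non-coding processed transcript, and to 0.32 per merged exon base.

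Cat (ENSMUSG00000027187.10, chr2:103453849-103485160, - strand) encodes the peroxisomal enzyme catalase. It was listed at 0 and 9.53 FPKM in the Unstimulated libraries, 3.36 and 6.23 FPKM in the Control libraries and 8.96 and 5.98 FPKM in the SMF libraries. The 3 groups overlapped, and no comparison was called (adjusted p = 0.689 in Control against Unstimulated and adjusted p = 0.802 in SMF against Control). Fold changes from Unstimulated cells changed sign without Unstimulated 1, where Cat was listed at 0.

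Gpx1 (ENSMUSG00000063856.7, chr9:108338903-108340343, + strand) encodes the cytosolic glutathione peroxidase, a selenoprotein. Its level was 18.8 and 7.41 FPKM in the Unstimulated libraries, 8.51 and 17.9 FPKM in the Control libraries and 53.6 and 41.5 FPKM in the SMF libraries. Unstimulated and Control cells overlapped, with a log2 difference of 0.06 ± 0.56 (adjusted p = 0.968), while both SMF libraries were above all others, with a log2 fold change of 1.84 ± 0.56 over Control (adjusted p = 0.174). The difference between Control and Unstimulated had opposite signs at the 2 folder dates, -1.06 for 20170621 and 1.17 for 20171112.

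The Gpx1 mRNA (ENSMUST00000082429.6) was listed at 10.6 and 0.0145 FPKM in the Unstimulated libraries, 8.34 and 17.7 FPKM in the Control libraries and 53.5 and 41.1 FPKM in the SMF libraries. In Unstimulated 2, 99.8% of the level was assigned to a transcript that keeps the only intron (ENSMUST00000192401.1), compared with 43.8% in Unstimulated 1 and at most 2.02% in the 4 stimulated libraries. These transcripts part at the end of exon 1 (chr9:108339558), and the 20 bases after it are in capitals.
Gpx1 exon 1 joined to exon 2: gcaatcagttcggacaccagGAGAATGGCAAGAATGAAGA
Gpx1 exon 1 read into the intron: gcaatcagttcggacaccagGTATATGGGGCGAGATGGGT

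Over all protein-coding genes, retained-intron transcripts held 19.7% and 18.96% of FPKM in fresh cells, 17.4% and 16.2% in Control cells and 13.4% and 13.9% in SMF cells. This share was thus highest in fresh cells and lowest in SMF cells, and its part in the intron shares of Sod1 and Gpx1 was not tested.

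**Figure D1:**
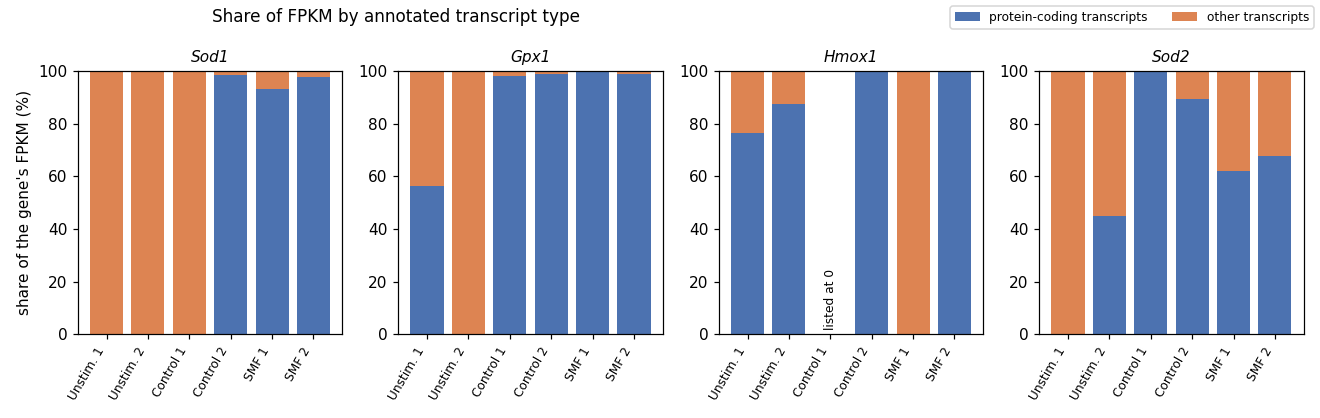
Share of the level of Sod1, Gpx1, Hmox1 and Sod2 (percent of the gene's FPKM, vertical axis) held by protein-coding transcripts (blue) and by other annotated transcripts (orange) in each of the 6 libraries (horizontal axis). Sod1 is wholly in a retained-intron transcript in both Unstimulated libraries and Control 1, and 93.3% to 98.3% in the spliced mRNA in the other 3.

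Gpx4 (ENSMUSG00000075706.10, chr10:80047166-80056439, + strand) encodes the glutathione peroxidase that reduces lipid peroxides in membranes. Its level was 17.2 and 20.2 FPKM in the Unstimulated libraries, 26.9 and 24.0 FPKM in the Control libraries and 33.4 and 41.2 FPKM in the SMF libraries. The groups followed each other without overlap, but each step was below 2-fold, with log2 fold changes of 0.43 ± 0.31 for Control against Unstimulated (adjusted p = 0.425) and 0.53 ± 0.31 for SMF against Control (adjusted p = 0.376). SMF against Unstimulated gave 0.96 ± 0.31 (adjusted p = 0.0722), which passed the threshold on the unadjusted p and fell just short of 2-fold.

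Prdx1 (ENSMUSG00000028691.12, chr4:116685544-116700822, + strand) encodes an abundant cytosolic peroxiredoxin. Its level was 25.9 and 37.6 FPKM in the Unstimulated libraries, 26.1 and 31.1 FPKM in the Control libraries and 94.3 and 135 FPKM in the SMF libraries. Fresh and Control cells overlapped, whereas both SMF libraries stood at least 2-fold above every other library. Prdx1 thus had a log2 fold change of 1.95 ± 0.34 in SMF against Control (adjusted p = 0.136) and -0.13 ± 0.34 in Control against Unstimulated (adjusted p = 0.848). The call in SMF against Control was kept in all 15 alternatives, with log2 fold changes between 1.59 and 2.21.

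Coverage of Prdx1 was highest over exon 3, 4 or 5 in every library. On the FPKM scale, coverage of exon 4 of the 6-exon mRNA was 58.6 and 57.6 in fresh cells, 38.9 and 61.3 in Control cells and 458 and 619 in SMF cells. Exon 6, of 1652 bases, was covered at no more than 29.1 in any library. The split between the mRNA of 636 bases and that of 2294 bases was unstable, since the shorter held 67.8% of the level in Control 2 and 1.16% in Control 1.

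Prdx3 (ENSMUSG00000024997.7, chr19:60864051-60874556, - strand) encodes the mitochondrial peroxiredoxin and has a single transcript. It was listed at 0 and 7.71 FPKM in the Unstimulated libraries, 13.8 and 22.1 FPKM in the Control libraries and 28.5 and 35.3 FPKM in the SMF libraries. The 3 groups did not overlap. Control against Unstimulated was called higher, with a log2 fold change of 2.65 ± 0.98 (adjusted p = 0.149), which became 1.09 and was no longer called without Unstimulated 1, the library in which Prdx3 was listed at 0. SMF against Control gave 0.82 ± 0.98 (adjusted p = 0.654), with a 95% confidence interval from -1.54 to 3.19. The 3 groups share 1 estimate of spread, so this interval also carries the gap between the Unstimulated libraries. In Control 1 only 2 of the 7 exons were covered.

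Txn1 (ENSMUSG00000028367.5, chr4:57943373-57956411, - strand) encodes cytosolic thioredoxin, the reductant of Prdx1 and of ribonucleotide reductase. It was listed at 0 and 16.2 FPKM in the Unstimulated libraries, 161 and 114 FPKM in the Control libraries and 254 and 345 FPKM in the SMF libraries. It was among the 4 lowest members in fresh cells and the highest in both stimulated groups. The log2 fold change in Control against Unstimulated was 5.04 ± 1.21 (adjusted p = 0.0565) and was 2.99 without Unstimulated 1, where Txn1 was listed at 0. The call was lost when either Control library was left out. SMF against Control gave 1.13 ± 1.21 (adjusted p = 0.615) although the libraries did not overlap, with 1 estimate of spread shared by the 3 groups.

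Txnrd1 (ENSMUSG00000020250.10, chr10:82833951-82897712, + strand) encodes the cytosolic thioredoxin reductase, a selenoprotein that keeps thioredoxin reduced with NADPH. Its level was 11.7 and 8.10 FPKM in the Unstimulated libraries, 23.1 and 16.2 FPKM in the Control libraries and 41.6 and 45.8 FPKM in the SMF libraries. The groups followed each other without overlap. Txnrd1 had a log2 fold change of 0.92 ± 0.37 in Control against Unstimulated (adjusted p = 0.173, below 2-fold and not called) and 1.13 ± 0.37 in SMF against Control (adjusted p = 0.183). The difference between Control and Unstimulated was nearly the same at both folder dates, 0.93 and 0.92.

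Hmox1 (ENSMUSG00000005413.8, chr8:75093621-75100589, + strand) encodes the inducible heme oxygenase, which opens heme into biliverdin, carbon monoxide and iron. It was the only member called lower in any comparison, with 20.7 and 23.9 FPKM in the Unstimulated libraries, 0 and 1.05 FPKM in the Control libraries and 2.27 and 0.704 FPKM in the SMF libraries. Every stimulated library was below both fresh libraries, and the highest of them, SMF 1, was more than 9-fold below. The log2 fold change was -4.02 ± 0.62 in Control against Unstimulated (adjusted p = 0.0194) and -3.30 ± 0.62 in SMF against Unstimulated (adjusted p = 0.0165), and both calls were kept in all alternatives. SMF and Control overlapped (adjusted p = 0.524), and the 2.27 FPKM of SMF 1 came wholly from a retained-intron transcript.

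**Figure D2:**
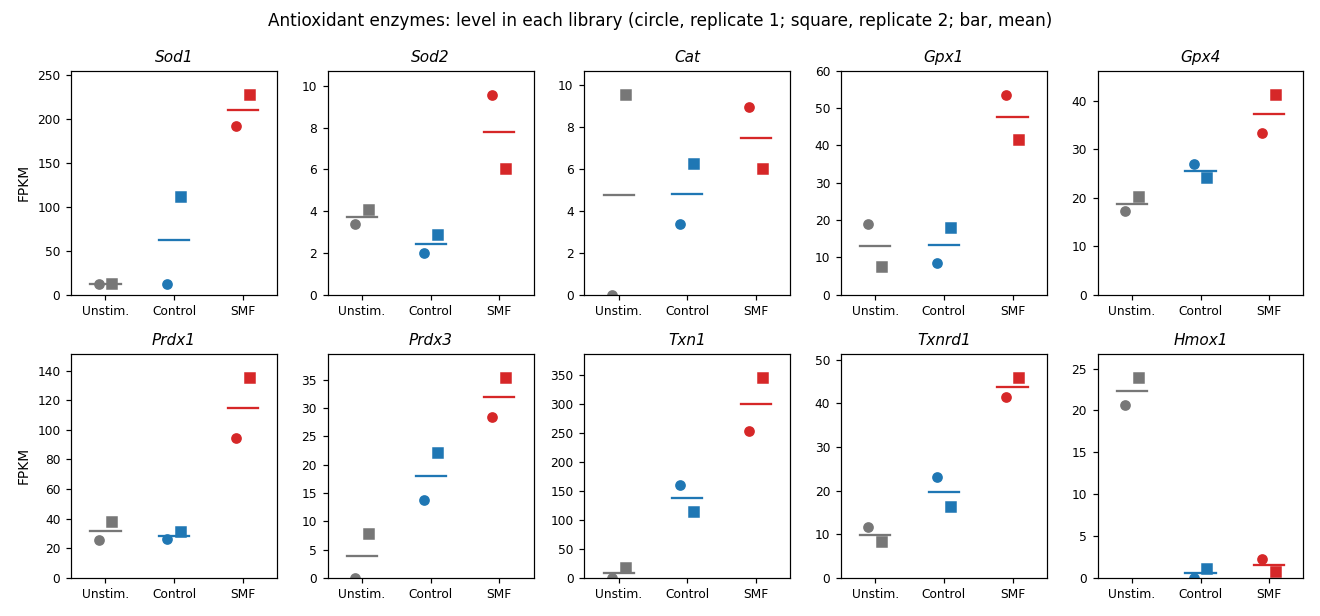
Level of each antioxidant enzyme (FPKM, vertical axis from 0) in the Unstimulated, Control and SMF groups (horizontal axis), with a circle for replicate 1, a square for replicate 2 and a bar for their mean. Txn1 reaches 254 and 345 FPKM in the SMF libraries, and Hmox1 drops from 20.7 and 23.9 FPKM in fresh cells to at most 2.27 FPKM after stimulation.

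Other genes moved with Hmox1. Of 8 markers of myeloid cells and macrophages, 5 (Lyz2, Adgre1, C1qa, Spic and Cd5l) were listed at 0 in all 4 stimulated libraries, and the summed level of the 8 was 161 and 172 FPKM in the Unstimulated libraries and 47.0 to 53.8 FPKM in the stimulated ones, where Csf1r gave 41.1 to 53.8 FPKM of it. Lyz2, a lysozyme of macrophages and granulocytes, was at 42.4 and 74.0 FPKM in fresh cells. Spic and Cd5l were already low there, at 0 and 1.19 FPKM and at 3.60 and 0.532 FPKM. Slc40a1, the iron exporter ferroportin, was at 21.3 and 16.5 FPKM in fresh cells and listed at 0 in the other 4 libraries. B cell markers, 5 in number, summed to 147 and 111 FPKM in fresh cells and to 2.43 to 23.3 FPKM after stimulation, and both NK cell markers were listed at 0 after stimulation. The 3 CD4 T cell markers were mixed. Cd40lg was listed at 0 after stimulation, and Cd4 was at 2.18 FPKM in Control 2 and at 0 in the other stimulated libraries. Foxp3 was at 20.7 and 4.92 FPKM in fresh cells, 11.9 and 19.3 FPKM in Control cells and 11.9 and 11.8 FPKM in SMF cells. Of the 6 erythroid markers, Alas2 alone was listed above 0 in the stimulated libraries, while the 4 neutrophil markers were at 0 there and only S100a9 was detected in fresh cells, in Unstimulated 2. In such bulk samples fewer cells of a type and less RNA per cell cannot be told apart, and the part of these markers in the Hmox1 difference was not tested. Hmox2, the constitutive heme oxygenase, was at 121 and 73.2 FPKM in fresh cells, 128 and 91.6 FPKM in Control cells and 75.6 and 69.6 FPKM in SMF cells, above Hmox1 in every library.

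**Figure D3:**
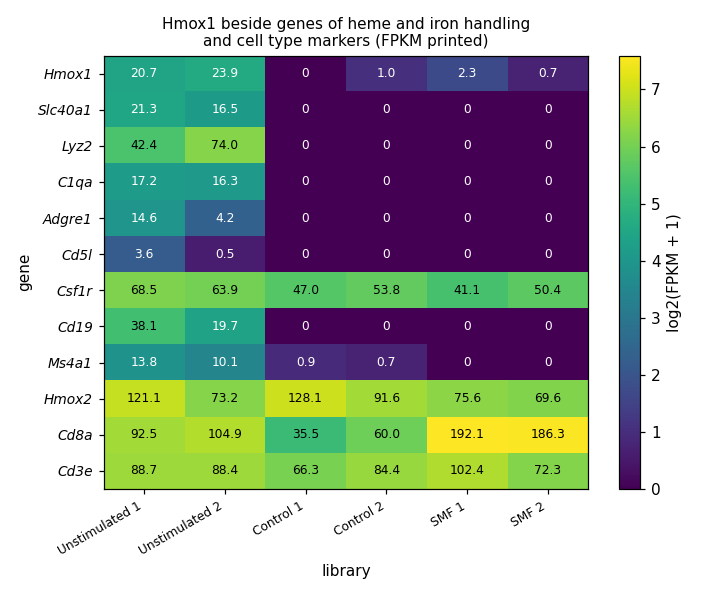
Heat map of log2(FPKM + 1) by gene (rows) and library (columns), with the FPKM printed in each cell. Hmox1, Slc40a1 and the macrophage markers Lyz2, C1qa, Adgre1 and Cd5l are present in both Unstimulated libraries, and all of these but Hmox1 are listed at 0 in the 4 stimulated libraries, where Csf1r, Cd8a and Cd3e remain.

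Within each group the order of the levels was clear at the top and unclear lower down. In fresh cells Prdx1 (mean 31.7 FPKM), Hmox1 (22.3 FPKM) and Gpx4 (18.7 FPKM) led without overlap between neighbours, whereas Gpx1 and Sod1 overlapped with the neighbour above, as did the 4 members below Txnrd1 (9.88 FPKM). In SMF cells Txn1 (299 FPKM), Sod1 (210 FPKM) and Prdx1 (115 FPKM) led without overlap, and the pairs Gpx1 and Txnrd1, Gpx4 and Prdx3, and Sod2 and Cat did not differ beyond their spread. In Control cells Txn1 led at 137 FPKM, Sod1, Prdx1 and Gpx4 overlapped in sequence, and so did Txnrd1, Prdx3 and Gpx1. The 10 members together made up 0.0227% and 0.0295% of all FPKM in fresh cells, 0.0514% and 0.0637% in Control cells and 0.147% and 0.178% in SMF cells. These shares were not adjusted for the higher protein-coding share of the SMF libraries (69.2% and 68.7% of all FPKM), and Txn1 and Sod1 had the highest levels there.

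To ask what stimulation did to these enzymes, Control was compared with Unstimulated. Of the 10 members, all of which passed the filter of a mean of at least 1 FPKM, 2 were called higher (Txn1 and Prdx3) and 1 lower (Hmox1), against a background of 12.3% of all genes called higher and 12.6% called lower (24.8% in either direction). Hmox1 alone passed an adjusted p of 0.05, which 8.48% of all genes did. The libraries did not overlap for 4 members that were higher and 2 that were lower, against 24.8% and 26.6% of all genes. The median log2 fold change of the members was 0.61 and that of all genes tested -0.05. Within folder dates, 6 of the 10 members kept their sign at both dates, namely Hmox1, Txn1, Prdx3, Txnrd1, Gpx4 and Sod2, while Sod1 gave -0.01 and 3.06, Cat 2.12 and -0.54, and Prdx1 0.01 and -0.27.

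To ask what the field added to stimulation, SMF was compared with Control. Sod1, Sod2, Gpx1, Prdx1 and Txnrd1, 5 of the 10 members, were called higher and none lower, against 12.5% and 5.72% of all genes (18.2% in either direction). The libraries of 8 members did not overlap, all higher in SMF, whereas 37.4% of all genes were higher and 17.4% lower without overlap. No member passed an adjusted p of 0.05 in limma (smallest 0.136, for Prdx1), the 5 called members had unadjusted p-values between 0.00107 and 0.0370, and 0.0267% of all genes passed. The log2 fold change was above 0 for all 10 members, with a median of 1.13 compared with 0.32 for all genes tested. The members are all protein-coding genes, while the genes tested are of mixed types. With protein-coding transcripts alone, the median of the 10291 genes tested was 0.58, with 1548 called higher and 235 lower. The 1.13 of the members is from all transcripts, and their median on that other measure is not given. On a scale with a single median for every library, which took the median of all genes to -0.02, and on a scale with a single protein-coding sum, which took it to 0.04, only Prdx1 and Gpx1 of the members were still called, and the calls of all genes moved from 1868 higher and 857 lower to 877 and 1441 on the former and to 859 and 1356 on the latter. Over the alternatives the lowest log2 fold changes were 0.90 for Sod1, 0.83 for Sod2, 1.35 for Gpx1, 1.59 for Prdx1 and 0.78 for Txnrd1. Only the call of Prdx1 was kept in all of them. With 1 library left out, the median of all genes lay between 0.26 and 0.35. A fit on the Control and SMF libraries alone called 4 members, with Txn1 added and Sod1 and Sod2 lost. It called 1597 of all genes higher and 720 lower. Some markers also differed between these groups. Of the 5 T cell genes, Cd8a (35.5 and 59.98 FPKM in Control, 192 and 186 FPKM in SMF) and Cd3d were called higher in SMF, whereas Cd3g was not called and Cd8b1 and Cd3e overlapped, with log2 differences of 0.24 and 0.20. Of the 5 activation genes, Gzmb, which encodes granzyme B of killing granules, was called higher (1494 and 1565 against 2282 and 4283 FPKM), while Il2ra, Mki67, Ifng and Actb were not called, and Ifng overlapped with a difference of 0.045. The B cell marker Cd79a was called lower in SMF (-1.78), and Cd68, a lysosomal marker of macrophages, was called higher, from 0 in both Control libraries to 6.42 and 0.892 FPKM. The part of activation or cell purity in the differences of the members was not tested.

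SMF against Unstimulated combined both steps and shares its libraries with the comparisons above. Here 6 members were called higher (Txn1 6.16, Sod1 4.0, Prdx3 3.47, Txnrd1 2.06, Gpx1 1.90 and Prdx1 1.82 in log2 fold change) and Hmox1 was called lower, against 22.4% and 14.8% of all genes (37.2% in either direction). The libraries did not overlap for 8 members that were higher and 1 that was lower, against 39.7% and 26.0% of all genes. An adjusted p of 0.05 was passed by 6 members, against 23.6% of all genes, and the median log2 fold change of the members was 1.86 compared with 0.27 for all genes. With protein-coding transcripts alone the median of the genes tested was 0.63, whereas the 1.86 of the members is from all transcripts. The calls of Sod1, Prdx3 and Gpx1 were not kept in every alternative, where their lowest log2 fold changes were 1.70, 1.91 and 1.28.

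**Figure D4:**
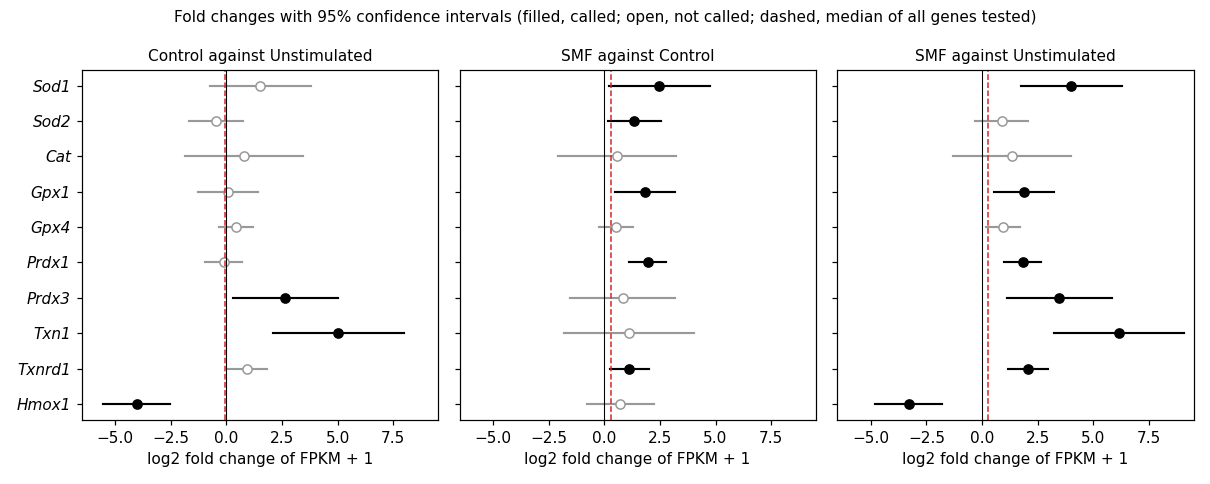
Log2 fold change of FPKM + 1 (horizontal axis) of each antioxidant enzyme (vertical axis) in the 3 comparisons, with 95% confidence intervals from limma. Filled points are called, open points are not, and the dashed line is the median of all genes tested (-0.05, 0.32 and 0.27). All 10 members lie above 0 in SMF against Control, where the intervals of Cat, Gpx4, Prdx3, Txn1 and Hmox1 include 0. Hmox1 alone is called lower in the other panels.

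Some members have annotated copies that could share their reads. Transcripts with at least 95% identity over at least 200 aligned bases exist for Sod1 (Gm8566), Gpx4 (Gpx4-ps2), Prdx1 (Gm7204 and Gm21399) and Txn1 (Txn-ps1), and the levels of these 4 members are uncertain to that extent. Gpx4-ps2 was listed at 6.47 and 5.14 FPKM in the Unstimulated libraries, 2.83 and 19.2 FPKM in the Control libraries and 17.3 and 21.3 FPKM in the SMF libraries, close to the level of Gpx4 in Control 2. The Prdx1 copies reached 10.8 and 14.7 FPKM in sum, and Gm8566 17.9 and 11.2 FPKM, in the SMF libraries. The other 6 members had no such copy, and no exon of another gene overlapped an exon of any member.

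Promoters from RefSeq (GRCm38, 250 bases before to 50 after a start site) were at hand for 9 of the 10 members, all but Hmox1, in 14 windows. The ARE letters TGACNNNGC on either strand occurred in 3 of the 14 windows, those of Prdx1, Txnrd1 and Sod1, compared with 12.4% of 32851 promoters of the same length. The AP-1 letters TGANTCA occurred in the Prdx1 window only, at 2 places, compared with 7.81% of promoters, and 1 of these places overlaps its ARE letters. The other windows of Txnrd1 and those of the remaining members with a promoter, Sod2 and Gpx1 included, held no ARE letters. Whether ARE letters go with the calls was not tested. The matches are letters found in a window, not sites shown to be bound, and are shown because they are the only ARE matches. The sequences read 5′ to 3′ along the gene, and the capitals mark the ARE letters on the opposite strand.
Prdx1, chr4:116685441-116685499: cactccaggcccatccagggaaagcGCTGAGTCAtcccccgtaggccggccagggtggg
Txnrd1, chr10:82859089-82859147: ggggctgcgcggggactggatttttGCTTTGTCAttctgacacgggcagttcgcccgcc
Sod1, chr16:90220681-90220739: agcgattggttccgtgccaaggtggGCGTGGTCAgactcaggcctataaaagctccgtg

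Around the members, 79 further genes of antioxidant defence were listed, also with earlier results known, and 63 of these passed the filter on low values. In Control against Unstimulated 12 of the 63 were called higher and 9 lower, beside 12.3% and 12.6% of all genes, with a median log2 fold change of 0.20 compared with -0.05 for all genes. In SMF against Control 13 were called higher and 1 lower, beside 12.5% and 5.72% of all genes, with a median of 0.60 compared with 0.32. The median of the genes tested with protein-coding transcripts alone was 0.58, whereas the 0.60 of these genes is from all transcripts, so these medians are not on the same measure. No adjusted p was under 0.05 in limma, and 15 unadjusted p-values were. On the scale with a single median per library 6 were called higher and 3 lower, and on that with a single protein-coding sum 6 and 2. All genes gave 877 higher and 1441 lower on the former and 859 and 1356 on the latter. In SMF against Unstimulated 22 were called higher and 6 lower, beside 22.4% and 14.8% of all genes. Their median was 0.96 compared with 0.27 for all genes. The genes tested with protein-coding transcripts alone had a median of 0.63, on another measure than the 0.96. With a single protein-coding sum 14 of the 63 genes were called higher and 8 lower, beside 2309 higher and 3010 lower of all 14991 genes. Fewer of these genes than the 14 in SMF against Control were called without SMF 1, SMF 2 or Control 1, and fewer of all genes were called there as well. Neither number fell without Control 2. Each of these fits leaves 1 library in a group.

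The thioredoxin system, with 7 tested genes, had 3 called higher and 1 lower in Control against Unstimulated (12.3% and 12.6% of all genes) and 4 called higher in SMF against Control (12.5% of all genes). Txnip, the thioredoxin-binding inhibitor that falls when T cells start to grow, was at 65.0 and 63.9 FPKM in fresh cells, 21.1 and 17.0 FPKM in Control cells and 11.3 and 10.4 FPKM in SMF cells. It fell by 1.71 on the log2 scale with stimulation (adjusted p = 0.0285), and its further difference of -0.76 in SMF against Control (adjusted p = 0.236) passed the threshold on the unadjusted p without reaching 2-fold. The mitochondrial thioredoxin Txn2 was at 5.88 and 14.8 FPKM in fresh cells, 19.7 and 18.5 FPKM in Control cells and 57.3 and 55.0 FPKM in SMF cells. Its partner Txnrd2 was at 2.69 and 2.68, 14.6 and 11.1, and 19.1 and 12.5 FPKM in the same groups and was called higher with stimulation (log2 fold change 1.90, adjusted p = 0.0474). Txnl1 and Txndc12, which are thioredoxin-like proteins, were called higher in SMF against Control (1.29, adjusted p = 0.201, and 1.57, adjusted p = 0.221).

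Among peroxiredoxins, Prdx2, the cytosolic relative of Prdx1, was at 6.05 and 2.93 FPKM in fresh cells, 28.4 and 34.9 FPKM in Control cells and 78.3 and 64.1 FPKM in SMF cells. It was called higher in both steps, with log2 fold changes of 2.62 ± 0.40 (adjusted p = 0.0194) and 1.15 ± 0.40 (adjusted p = 0.200). Prdx4, the peroxiredoxin of the endoplasmic reticulum, was called higher with stimulation (2.41, adjusted p = 0.145), and was listed at 0 in Unstimulated 2. Ccs, the chaperone that loads copper into Sod1, was also called higher with stimulation (2.15, adjusted p = 0.170), with 0 and 3.88 FPKM in fresh cells and 5.50 and 13.9 FPKM in Control cells.

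Glutathione genes were mixed. Gss, glutathione synthetase, fell by 1.95 on the log2 scale with stimulation (adjusted p = 0.0767), from 27.1 and 28.8 FPKM to 7.92 and 5.29 FPKM. Glrx3, a glutaredoxin that handles iron-sulfur clusters, was called higher (2.30, adjusted p = 0.147). In SMF against Control, 3 of the 9 tested genes of this list were called higher, compared with 12.5% of all genes, and these were Gsr, Slc3a2 and Gclm. Gsr, glutathione reductase, was at 5.75 and 14.0 FPKM in Control and 26.2 and 30.4 FPKM in SMF (1.54, adjusted p = 0.180). Slc3a2, the heavy chain of the cystine and other amino acid transporters, was at 10.7 and 29.9 FPKM in Control and 58.9 and 60.4 FPKM in SMF (1.67, adjusted p = 0.174). Gclm, the modifier subunit of the enzyme that starts glutathione synthesis, was at 1.39 and 2.94 FPKM in fresh cells, 1.16 and 1.84 FPKM in Control cells and 12.6 and 4.13 FPKM in SMF cells (1.75, adjusted p = 0.220). Slc7a11, the cystine transporter that pairs with Slc3a2, stayed at or below 1.46 FPKM in every library. The glutathione transferase Gstp1, listed at 0 and 5.39 FPKM in Control and at 28.8 and 18.5 FPKM in SMF, had the largest log2 fold change of the 63 genes in that comparison (3.25, adjusted p = 0.166).

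Of the 9 regulators of NRF2 and BACH listed, all of which were tested, 2 were called higher (Keap1 and Nfe2l1) and 2 lower (Nfe2l2 and Bach1) with stimulation, where 24.8% of all genes were called, and 1 was called in SMF against Control, where 18.2% were. Keap1 was at 4.37 and 6.35 FPKM in fresh cells, 74.3 and 36.6 FPKM in Control cells and 13.5 and 19.2 FPKM in SMF cells. It was called higher with stimulation (3.08 ± 0.47, adjusted p = 0.0191) and was the only 1 of the 63 genes called lower in SMF against Control (-1.64 ± 0.47, adjusted p = 0.167). Nfe2l2, which encodes NRF2, was at 10.9 and 24.6, 6.87 and 6.20, and 11.4 and 9.39 FPKM in the same groups, was called lower with stimulation (-1.21, adjusted p = 0.176) and was not called in SMF against Control (0.59, adjusted p = 0.506). Bach2, a repressor of the same DNA element that also restrains effector differentiation, was between 13.7 and 29.4 FPKM in all libraries and was not called in any comparison. Nqo1, a reductase often used as a readout of NRF2, was listed at 0 in every library. Fth1, the ferritin heavy chain, was at 159 and 154 FPKM in fresh cells, 60.5 and 67.5 FPKM in Control cells and 138 and 139 FPKM in SMF cells, and was called lower in the first step and higher in the second (1.10, adjusted p = 0.136).

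Of the genes that supply NADPH, Pgd, a dehydrogenase of the pentose phosphate pathway, was at 7.54 and 10.5 FPKM in fresh cells, 28.9 and 37.6 FPKM in Control cells and 90.4 and 88.6 FPKM in SMF cells. Its log2 fold change was 1.78 with stimulation (adjusted p = 0.0289) and 1.41 in SMF against Control (adjusted p = 0.141). None of the 6 genes of selenoprotein synthesis was called in these 2 comparisons. Actb, a cytoskeletal gene often used as a reference, was at 954 and 962 FPKM in fresh cells, 463 and 1208 FPKM in Control cells and 1348 and 974 FPKM in SMF cells, with a log2 difference of 0.62 ± 0.45 in SMF against Control (adjusted p = 0.457).

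**Figure D5:**
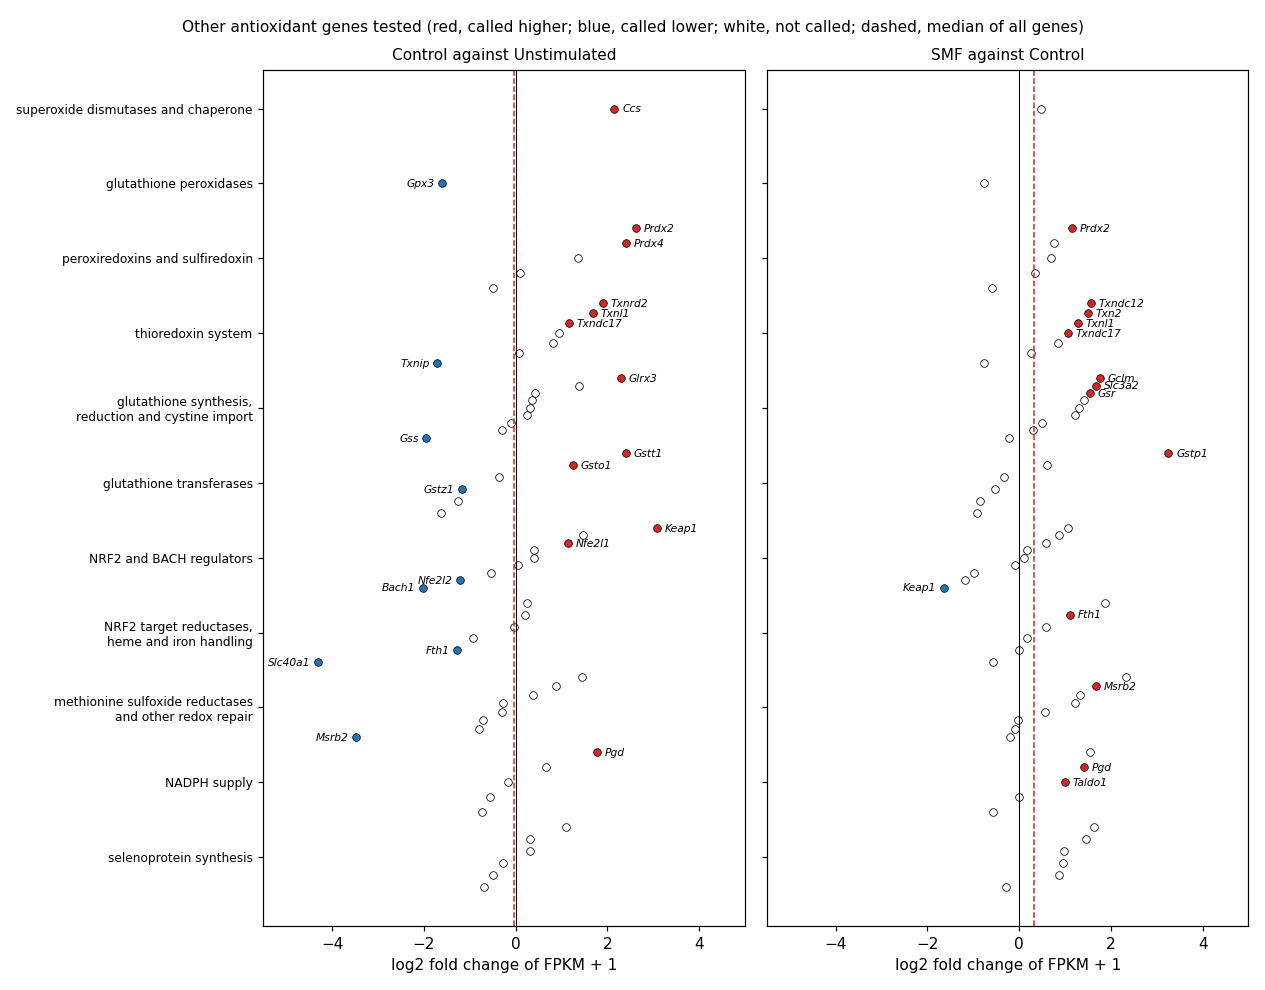
Log2 fold change of FPKM + 1 (horizontal axis) of the 63 further antioxidant genes tested, grouped by list (vertical axis), in Control against Unstimulated (left) and SMF against Control (right). Named red points are called higher and blue points lower, and the dashed line is the median of all genes. Keap1 is at 3.08 on the left and -1.64 on the right. The place of Slc40a1 depends on the 1 FPKM added before the logarithm, since it is listed at 0 after stimulation.

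The genes whose levels ran closest to each member over the 6 libraries were found by Pearson's r of log2(FPKM + 1) among 10297 protein-coding genes, as a description. These were Dctpp1 for Sod1 (r = 0.9998), Aldh4a1 for Sod2 (0.998), Mmachc for Cat (0.998), H2afy for Gpx1 (0.993), Ube2n for Gpx4 (0.994), Plk3 for Prdx1 (0.997), Nsd2 for Prdx3 (0.995), Pole3 for Txn1 (0.9996), Efl1 for Txnrd1 (0.998) and Mkl1 for Hmox1 (0.997). With 6 libraries in 3 groups such values are common, and between 33 genes (Cat) and 316 genes (Txn1) had r of at least 0.95. Among the members themselves, Prdx3 and Txn1 were closest (r = 0.978), followed by Gpx4 and Txnrd1 (r = 0.935), and Hmox1 and Txn1 were furthest apart (r = -0.839).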

How the data were processed

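Per the file headers, the authors ran StringTie 1.3.5 in expression-estimation mode on each library with GENCODE M19 models on GRCm38, and the submitters' processing notes name Trimmomatic 0.36, HISAT2 and mm10. The deposited files give coverage, FPKM and TPM per transcript, and coverage per exon. The RNA came from a stranded low-input total-RNA kit. A deposited table of the whole series was not used here, because its 3 value columns match no sample.

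FPKM was summed over the transcripts of a gene. FPKM of single transcripts gives no read counts, and a count test was therefore not run. The 14991 of 54446 genes whose mean reached 1 FPKM were tested in limma 3.58.1 (R 4.3.3) on log2(FPKM + 1), with a variance trend and all 3 groups in 1 fit (3 residual degrees of freedom). Fold changes on this scale understate the change of low genes. Calls used the study's thresholds (2-fold, unadjusted p no greater than 0.05), and printed p-values were adjusted by Benjamini-Hochberg over all genes tested. The script was tested on simulated data. Transcript types came from GENCODE M21 (54409 of 54446 genes matched), and copies were sought with minimap2 2.31.

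The members and the gene lists were chosen with earlier results of these data known. Named were all members, up to 8 called genes of the other lists in each comparison (mean of at least 5 FPKM, no overlap, largest change), Keap1, Nfe2l2, Bach2, Txnip, Gclm, Slc7a11, Prdx2 and Actb in any case, and the closest gene to each member. Also named, after their values were seen, were Nfe2l1, Bach1, Fth1, Hmox2, Nqo1, Gzmb, Mki67 and the other marker genes. The alternatives were another pseudocount, other filters, other scalings, TPM, protein-coding transcripts, no variance trend, only the 2 groups, the replicate block, the folder date and each library left out. Coverage per merged exon base was added after the data were seen.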

Additional observations from a re-analysis of the deposited data

How the results depend on the processing

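Of the 15 calls of members in the 3 comparisons, 6 were kept in every alternative: Hmox1 in Control against Unstimulated, Prdx1 in SMF against Control, and Prdx1, Txn1, Txnrd1 and Hmox1 in SMF against Unstimulated. In SMF against Control the number of members called was 2 with a single median per library, 2 with a single protein-coding sum per library and 2 with protein-coding transcripts alone, and the number of further antioxidant genes called was 9 (6 higher and 3 lower) and 8 (6 higher and 2 lower) on these 2 scalings. In SMF against Unstimulated it was 22 (14 higher and 8 lower) with a single protein-coding sum, where 2309 of all genes were called higher and 3010 lower. With a library left out, the members called numbered 1 to 4 in SMF against Control, 4 to 7 in SMF against Unstimulated and 2 to 4 in Control against Unstimulated, and the further antioxidant genes called 3 to 14, 14 to 24 and 13 to 16. The number of all genes called fell in these fits as well, except in SMF against Control without Control 2, where it rose. The ranges are therefore not set apart from this general change in calls. Where a group was left with 1 library, it was assumed to vary like the other groups.

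The log2 fold change of Gpx1 in Control against Unstimulated was highest, at 1.95 and not called, with protein-coding transcripts alone. It reversed to -0.078 with a single protein-coding sum and to -0.077 with TPM, and ranged from -0.56 (without Unstimulated 2) to 0.67 with a library left out, with -0.44 without Control 2. That of Sod2 in the same comparison reversed to 0.95 with protein-coding transcripts and to 0.32 per merged exon base. That of Prdx1 reversed to 0.61 per merged exon base and ranged from -0.39 to 0.13 (without Unstimulated 2) with a library left out. In the same comparison and on leaving out a library, Sod1 ranged from -0.051 (without Control 2) to 3.11 and Cat from -0.91 (without Unstimulated 1) to 2.49. In SMF against Unstimulated Cat ranged from -0.34 (without Unstimulated 1) to 3.06, and in SMF against Control Hmox1 reversed to -0.13 with protein-coding transcripts. None of these was called in the comparison as reported, and the cause was not tested.

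With the replicate block, 3, 4 and 7 members were called in Control against Unstimulated, SMF against Control and SMF against Unstimulated, compared with 3, 5 and 7 without it, and the call lost was Sod2. Deviations from the group means of libraries with the same number correlated across genes at 0.0963 between Unstimulated and Control, 0.0301 between Unstimulated and SMF and 0.0206 between SMF and Control. Libraries with the same number share a folder date in the Unstimulated and Control groups and only a number with the SMF libraries. With the folder date as a factor, 3 members and 21 further antioxidant genes were called in Control against Unstimulated, the same numbers as without it. The number of libraries, and depths from 64.4 to 259 Mb, limit the precision of every member listed at 0 or below a few FPKM.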
